A study of Mus musculus with 8 samples.

Results

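The 40 genes described here are Myc and 39 genes that serve or accompany the making of ribosomes, among them subunits of RNA polymerase I, the proteins of small nucleolar ribonucleoproteins, assembly factors of both ribosomal subunits, multifunctional nucleolar proteins and a pair of polyamine enzymes. They were chosen by symbol: each Ensembl identifier of the deposited expression table was named through the GENCODE M21 annotation, and the rows that carry the listed symbols were taken. All 40 were found among the 26589 genes of the table, and all 40 passed the filter on low values. The table holds 8 RNA-seq libraries of B cells from the spleens of IL-10-eGFP Tiger mice, in which cells that transcribe Il10 also make green fluorescent protein. Cultured B cells were given 3 µg/ml lipopolysaccharide, a component of bacterial walls that Toll-like receptor 4 senses, for 48 h and were then sorted on the reporter into 4 IL-10+ and 4 IL-10- libraries. Both groups thus carry the reporter allele and both had lipopolysaccharide; the age and sex of the mice are not given, and a tag in the labels that reads untreated stands against the protocols, which were followed here. A sort of this kind compares reporter-positive with reporter-negative cells, not the action of an added agent. Whether an IL-10+ and an IL-10- library came from the same culture is not given in the labels.

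MYC is a transcription factor that pairs with MAX and binds E-boxes, short motifs such as CACGTG, in the promoters of growth genes. Ribosome production starts in the nucleolus, where RNA polymerase I copies the ribosomal RNA genes; small nucleolar ribonucleoproteins guide chemical marks onto the transcript, the small subunit processome and the 60S assembly factors fold and cut it, and the subunits are exported. Many genes of this pathway, and the polyamine enzyme genes Odc1 and Srm, are known MYC targets. In B cells, MYC is induced by mitogens such as lipopolysaccharide and supports growth before division, and it is repressed by Blimp-1 (Prdm1) as cells become plasma cells.

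Promoter sequences show which members carry these motifs. Windows from 250 bases before to 50 bases after the start (RefSeq, GRCm38.p6) were matched by symbol for 32 of the 40 genes and gave 40 windows. CACGTG, which reads the same on both strands, was present in 6 of the 40 windows (15%), against 10.6% of 9788 windows of tested genes and 7.15% of all 32851 windows. The related motif CACGCG, searched on both strands (CGCGTG on the other) and counted apart from any CACGTG, was in 35% of the members' windows, 18.1% of those of tested genes and 9.27% of all. Median GC content of the windows was 59.5% for the members, 61% for tested genes and 52.7% for all promoters. The 4 stretches shown here, each the 250 bases before the start with the motif in capitals, are those of a member with one of the largest differences between the groups (Nop2), a member with a small difference (Imp4), a member that was higher in IL-10+ cells (Odc1) and one with a large difference between replicate numbers (Nolc1).
Nop2, chr6:125131633-125131882, plus strand: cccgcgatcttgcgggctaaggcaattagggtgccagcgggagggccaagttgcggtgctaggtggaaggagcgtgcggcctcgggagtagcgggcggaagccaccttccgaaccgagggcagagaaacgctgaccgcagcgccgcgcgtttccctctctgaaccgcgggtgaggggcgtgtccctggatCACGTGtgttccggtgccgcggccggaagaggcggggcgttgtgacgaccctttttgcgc
Imp4, chr1:34439579-34439828, plus strand: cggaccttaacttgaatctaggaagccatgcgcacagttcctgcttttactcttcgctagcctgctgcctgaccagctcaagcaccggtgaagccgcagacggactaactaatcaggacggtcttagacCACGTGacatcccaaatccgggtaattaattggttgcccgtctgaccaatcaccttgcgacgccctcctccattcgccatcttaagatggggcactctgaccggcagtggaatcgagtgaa
Odc1, chr12:17544623-17544872, plus strand: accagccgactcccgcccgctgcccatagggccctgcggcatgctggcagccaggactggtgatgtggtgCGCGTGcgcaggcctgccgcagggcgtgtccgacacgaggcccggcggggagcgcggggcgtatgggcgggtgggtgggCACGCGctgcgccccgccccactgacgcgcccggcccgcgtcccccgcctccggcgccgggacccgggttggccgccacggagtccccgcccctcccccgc
Nolc1, chr19:46075597-46075846, plus strand: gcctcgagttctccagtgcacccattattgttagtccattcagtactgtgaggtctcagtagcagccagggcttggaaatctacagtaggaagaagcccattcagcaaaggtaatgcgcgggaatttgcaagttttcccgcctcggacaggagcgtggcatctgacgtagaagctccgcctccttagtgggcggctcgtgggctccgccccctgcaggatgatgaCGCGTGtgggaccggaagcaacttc
The CACGTG of Nop2 begins 60 bases before the start and that of Imp4 begins 121 bases before it. Odc1 holds no CACGTG in this window and a pair of CACGCG motifs, on the minus and the plus strand, which begin 180 and 101 bases before the start. The single CACGCG of Nolc1 lies on the minus strand and begins 25 bases before the start. In Wdr43 and Pes1 the CACGTG falls just after the start, shown here with 12 bases on either side.
Wdr43, chr17:71616220-71616249, plus strand: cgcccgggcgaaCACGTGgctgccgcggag
Pes1, chr11:3963965-3963994, plus strand: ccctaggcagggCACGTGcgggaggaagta
A motif match is a description of these letters and not a measured binding site. The 6 genes with a CACGTG window had a median log2 change of -0.26 between the groups (range -0.40 to -0.13), and the 26 matched genes without one had -0.25 (range -0.42 to 0.20). The range of the genes with a CACGTG lies inside that of the genes without one.

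Library totals recovered from the deposited values ran from 27380348 to 29968235 reads, and the member with the fewest reads had 1421 in its lowest library. Counting alone gives an error of the log2 difference between the groups of 0.0042 to 0.025 (median 0.013) for a member, a median of 0.084 of its standard error without the replicate block described next and 0.469 of that with it, and at most 0.825 (Bysl). The labels number the libraries 1 to 4 in each group without saying what a number marks, so the p-values cover how these libraries scatter, some of which may be technical. Libraries of the same number deviated together, and numbers 1 and 2 stood apart from 3 and 4 in most of the 40 genes; results are therefore given without and with the number as a block. B cell markers summed to 1230 to 1553 FPKM (fragments per kilobase of gene, scaled to the size of the library) in IL-10+ and 1390 to 1886 in IL-10- libraries, and 3 of their 6 genes fell without the block. All 9 measured plasmablast markers rose in limma's test, and the list of 10 summed to 1482 to 1509 FPKM in IL-10+ against 336 to 479 in IL-10- libraries. Immunoglobulin genes made up 13.2% to 16.8% of all FPKM in IL-10+ libraries and 3.73% to 4.73% in IL-10- libraries. The part of both shifts in the results below was not tested. Summed markers of T cells (at most 0.178 FPKM), natural killer cells (0.0598), macrophages (0.906), neutrophils (1.36) and erythroid cells (0.226) were low throughout; dendritic cell markers summed to 7.57 to 14.9 FPKM, most of it Flt3.

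Most of the 40 genes were lower in IL-10+ cells, by small and even amounts. The ratio of the group means had a median of 0.841 over the 40 genes, which is 15.9% lower, and 38 of the 40 means were lower. The median log2 change of FPKM + 1 was -0.24, against -0.06 over the 11329 genes tested. In bulk RNA, a smaller number of cells that express a gene and less RNA in each cell cannot be told apart. Summed over the 40 genes, the level was 2788, 3320, 3884 and 4113 FPKM in IL-10- replicates 1 to 4 and 2459, 2763, 3359 and 3553 FPKM in IL-10+ replicates 1 to 4. The sums of the groups overlap, yet within every number the IL-10+ sum was the lower, at 0.882, 0.832, 0.865 and 0.864 of its counterpart.

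Without the block, 1 of the 40 genes fell in IL-10+ cells (Tcof1) and 0 rose at an adjusted p under 0.05 in limma, where 9.18% of all tested genes fell and 10.6% rose. At an unadjusted p under 0.05 there were 5 lower and 0 higher members, against 18.1% and 14.6% of all genes. With the replicate number as a block, 37 of the 40 fell and 2 rose, where 33.3% of all tested genes fell and 20.4% rose; Imp3 was the member not called. The 37 genes were 8.33% to 25.9% lower, with log2 changes of -0.12 to -0.42, blocked adjusted p in limma of 0.000137 to 0.0234, and adjusted p without the block of 0.0178 to 0.741. Of the 40 genes, 33 were between 10% and 25% lower. The median standard error of the log2 change was 0.174 without and 0.0318 with the block.

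The direction held number by number. Of the 40 genes, 37 were lower in IL-10+ cells in all 4 numbers and 2 were higher in all 4, against 40.4% and 24.3% of all tested genes. The members' median log2 difference was -0.21, -0.30, -0.24 and -0.23 in numbers 1 to 4, and that of all tested genes lay between -0.05 and -0.06. Only Tcof1 had groups that did not overlap, where 13% of all tested genes had no overlap with IL-10+ lower. After median-of-ratios scaling, which scales each library by the median ratio of its genes, the members' median was -0.20 (all genes -0.02), and with the block 35 fell and 2 rose, against 26.2% and 23.3% of 11333 genes. Imp4 (adjusted p = 0.0839) and Bysl (0.0643) lost their call there. Fits within replicates 1 and 2 or within 3 and 4 were run without the block. Within replicates 1 and 2 alone 0 members were called lower and 0 higher in limma, against 2.65% and 6.8% of all genes. Within 3 and 4 alone 17 were lower and 0 higher, against 12.1% and 11.4%.

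**Figure D1:**
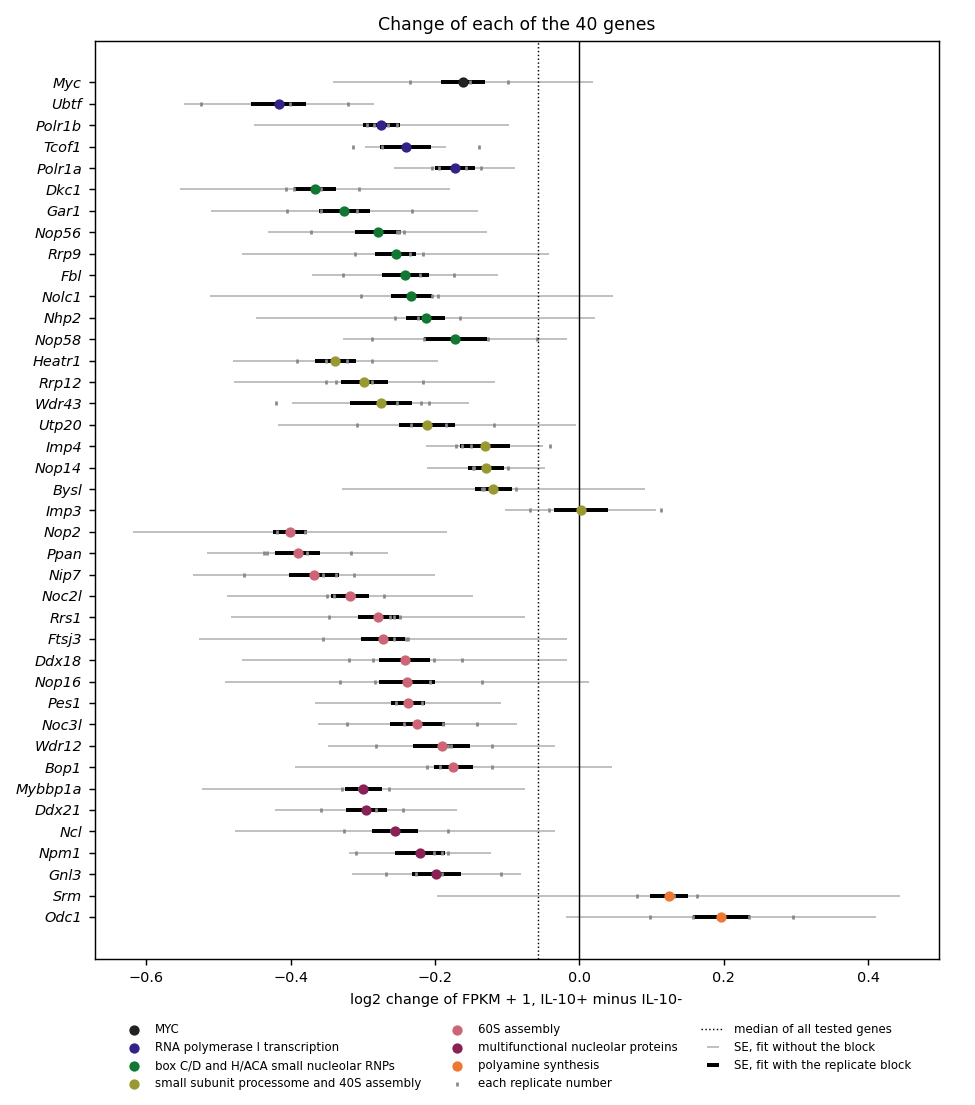
Log2 change of FPKM + 1 (IL-10+ minus IL-10-, x axis) of each of the 40 genes (y axis), coloured by role. Grey bars are the standard error without and black bars with the replicate block, small ticks are the 4 replicate numbers, and the dotted line is the median of all tested genes (-0.06). The points lie left of 0 except those of Imp3, Srm and Odc1.

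Myc itself was only slightly lower in IL-10+ cells. It lies at chr15:61985391-61990374 (GRCm38, ENSMUSG00000022346). Its level was 92.6, 123, 75.0 and 92.1 FPKM in IL-10- replicates 1 to 4 and 86.4, 110.1, 67.5 and 78.2 FPKM in IL-10+ replicates 1 to 4. Replicate 2 was the highest and replicate 3 the lowest in both groups, and the groups overlap. The means were 85.5 ± 18.1 and 95.7 ± 19.98 FPKM (SD, n = 4), 10.6% lower in IL-10+ cells. An exact two-sided permutation test of the difference of -10.2 FPKM gave p = 0.457, where 70 divisions allow no p under 0.0286. The log2 change was -0.16 (SE 0.18; limma adjusted p = 0.581) without the block and had an adjusted p of 0.00716 (SE 0.031) with it, since the IL-10+ library was at 0.849 to 0.933 of its counterpart in all 4 numbers. With the block and median-of-ratios scaling the change was -0.12 (adjusted p = 0.0217). Over the 8 libraries, the tested genes whose log2 level followed Myc most closely were Spidr (Pearson r = 0.967), Ipo8 (0.951), Tmem209 (0.947), Ttc9c (0.947) and Hexim2 (0.945). The closest member was Tcof1 (0.396), then Npm1 (0.0547) and Nop14 (0.0031). All other members correlated negatively with Myc, down to Odc1 (-0.599) and Srm (-0.627). These correlations are descriptions, since the points share the sort, the replicate numbers and the library totals.

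Partners and regulators of MYC include genes that rose and genes that fell. Of 23 listed genes of the network, 19 passed the filter, and 5 rose and 2 fell without the block, which is 26.3% and 10.5% against 10.6% and 9.18% of all tested genes. With the block 7 rose and 6 fell (36.8% and 31.6%, against 20.4% and 33.3% of all), so the share that fell is near that of all genes. Pim1, a kinase that stabilises MYC, was at 136.3, 140.4, 128.6 and 134.9 FPKM in IL-10- replicates 1 to 4 and at 290.6, 322.1, 268.5 and 257.4 FPKM in IL-10+ replicates 1 to 4. Every IL-10+ library was above every IL-10- library, at a mean ratio of 2.11 (log2 1.07, SE 0.081, limma adjusted p = 5.14e-05). Max, the obligate partner of MYC, was at 44.3, 48.1, 52.1 and 54.5 FPKM in the IL-10- libraries of numbers 1 to 4 and at 35.1, 34.6, 37.0 and 40.9 FPKM in their IL-10+ counterparts. The groups of Max did not overlap, and it fell by 0.42 on the log2 scale (SE 0.086, limma adjusted p = 0.00943). Bin1, a MYC-interacting adaptor, fell from 63.0 ± 8.96 to 40.5 ± 4.30 FPKM (SD, n = 4; log2 -0.62, limma adjusted p = 0.00584). Mxd4 and Mxd1, MAX partners that oppose MYC at E-boxes, rose at low levels: Mxd4 was at 4.74 ± 1.08 against 2.64 ± 0.781 FPKM (limma adjusted p = 0.0317) and Mxd1 at 2.29 ± 0.519 against 1.33 ± 0.348 FPKM (0.0451). Their relatives Mxd3 and Mxi1 were not called (limma adjusted p = 0.614 and 0.943 without the block, 0.206 and 0.442 with it). Fbxw7, the ubiquitin ligase subunit that marks MYC for decay, rose to 7.57 ± 1.38 from 5.35 ± 0.393 FPKM (limma adjusted p = 0.0303), and Usp28, a deubiquitinase that counters it, rose to 7.54 ± 0.417 from 5.80 ± 0.550 FPKM (0.0138). Pim1, Max, Bin1 and Usp28 held their calls when each of the 8 libraries was left out in turn. The calls of Mxd4, Mxd1 and Fbxw7 ended in 6, 6 and 4 of those fits (adjusted p up to 0.0889, 0.119 and 0.0826), and every library other than IL-10- replicate 1 ended at least 1 of them; all 3 were called in the 8 fits with the block.

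The 4 genes of RNA polymerase I transcription were 11.8% to 25.9% lower in IL-10+ cells, and all 4 fell with the block. Tcof1 encodes treacle, a nucleolar scaffold for polymerase I. It stood at 103.8, 98.3, 101.6 and 99.5 FPKM in IL-10- replicates 1 to 4 and at 85.7, 89.2, 81.6 and 84.3 FPKM in IL-10+ replicates 1 to 4. The lowest IL-10- library exceeded the highest IL-10+ library. The means of 85.2 ± 3.17 and 100.8 ± 2.41 FPKM (SD, n = 4) differed by a log2 of -0.24 (SE 0.057), with limma adjusted p = 0.0178 without and 0.00289 with the block. Without the block the call ended when IL-10- replicate 3 (adjusted p = 0.0509), IL-10+ replicate 3 (0.0665) or IL-10+ replicate 4 (0.0546) was left out, and within replicates 1 and 2 alone (0.237).

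Ubtf, the upstream binding factor that opens ribosomal RNA genes for polymerase I, had the largest proportional difference of the 40 genes. Its level was 41.9, 47.7, 57.0 and 59.8 FPKM in IL-10- replicates 1 to 4 and 33.3, 35.9, 39.3 and 44.4 FPKM in IL-10+ replicates 1 to 4. Only IL-10+ replicate 4 lay above an IL-10- library, that of replicate 1. Ubtf was 25.9% lower (log2 -0.42, SE 0.13), with limma adjusted p = 0.0577 without and 0.000522 with the block. Polr1b, a catalytic subunit of polymerase I, was at 17.6, 19.4, 24.2 and 27.8 FPKM in the IL-10- libraries of numbers 1 to 4 and at 14.2, 16.0, 20.1 and 22.6 FPKM in their IL-10+ counterparts. It was 18.1% lower, with limma adjusted p = 0.325 without and 0.000558 with the block, and its groups overlap. Polr1a, the other catalytic subunit, was 11.8% lower (blocked limma adjusted p = 0.00387). Ubtf, Polr1b and the pairs named with the block in the roles below were taken by the rule for called genes applied to the blocked fit, a use of the rule settled after their values were seen.

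All 8 proteins of the small nucleolar ribonucleoproteins fell with the block and were 11.8% to 22.5% lower; 0 of the 8 were called without it. Box C/D particles, with Nop56, Nop58 and the methyltransferase fibrillarin (Fbl), methylate ribosomal RNA, and H/ACA particles, with the pseudouridine synthase dyskerin (Dkc1), Gar1 and Nhp2, convert uridine to pseudouridine. Dkc1 was at 45.0, 55.8, 65.95 and 70.9 FPKM in IL-10- replicates 1 to 4 and at 33.7, 42.1, 53.2 and 55.1 FPKM in IL-10+ replicates 1 to 4. In both groups the level was lowest in replicate 1 and highest in replicate 4, and the groups overlap. Dkc1 was 22.5% lower (log2 -0.37; limma adjusted p = 0.216 without and 0.000299 with the block). Gar1 was at 35.8, 41.2, 51.7 and 57.9 FPKM in the IL-10- libraries of numbers 1 to 4 and at 30.3, 30.9, 40.1 and 46.6 FPKM in their IL-10+ counterparts, 20.7% lower (blocked limma adjusted p = 0.000961). Nhp2, the most abundant of the 8, was at 108.5, 140.7, 188.8 and 195.0 FPKM in the IL-10- libraries of numbers 1 to 4 and at 96.7, 117.7, 163.3 and 166.9 FPKM in their IL-10+ counterparts. Its means of 136.1 ± 34.6 and 158.2 ± 41.1 FPKM differed by 14.0% (limma adjusted p = 0.576 without and 0.00161 with the block). Gar1 and Nhp2 too overlapped between the groups, with replicates 3 and 4 above 1 and 2 on both sides of the sort.

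Of the 8 factors of the small subunit processome and 40S assembly, 7 fell with the block, 5 with the block and median-of-ratios scaling, and 0 were called without the block. The processome is the large particle that folds and cuts the 18S part of the precursor. Heatr1 (UTP10), one of its early subunits, was at 25.9, 32.2, 34.6 and 38.3 FPKM in IL-10- replicates 1 to 4 and at 21.05, 24.3, 26.9 and 30.5 FPKM in IL-10+ replicates 1 to 4. The groups overlap, and Heatr1 was 21.6% lower (limma adjusted p = 0.138 without and 0.000398 with the block). Rrp12, which acts in subunit export, was at 22.7, 26.8, 32.5 and 34.5 FPKM in the IL-10- libraries of numbers 1 to 4 and at 17.6, 21.03, 26.5 and 29.5 FPKM in their IL-10+ counterparts. It was 18.8% lower (limma adjusted p = 0.296 without and 0.000963 with the block), with overlapping groups. Wdr43 (UTP5), the most abundant of the 8, was at 75.7, 95.8, 96.1 and 99.4 FPKM in the IL-10- libraries of numbers 1 to 4 and at 63.4, 71.3, 83.0 and 85.3 FPKM in their IL-10+ counterparts. IL-10- replicate 1 stood well below the other IL-10- libraries, and the means differed by 17.4% (limma adjusted p = 0.159 without and 0.00352 with the block).

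Imp3, which with Imp4 joins the U3 small nucleolar RNA to the precursor, did not share the pattern in its values. It was at 55.2, 65.3, 70.3 and 73.5 FPKM in IL-10- replicates 1 to 4 and at 59.7, 62.2, 70.5 and 71.4 FPKM in IL-10+ replicates 1 to 4. IL-10+ was the higher in numbers 1 and 3 and the lower in 2 and 4. The means were 65.97 ± 5.86 and 66.1 ± 8.02 FPKM (SD, n = 4), with a log2 change of 0.00 (SE 0.10; limma adjusted p = 0.993, and 0.969 with the block, SE 0.037). Imp4 was 9.21% lower, at 10.5 to 13.0 FPKM in IL-10+ against 11.9 to 13.9 FPKM in IL-10- libraries. Bysl, another 40S factor, was 8.33% lower, at 15.6 to 26.0 against 17.2 to 28.4 FPKM. Imp4 and Bysl are the members whose blocked calls ended under other scalings.

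All 12 factors of 60S assembly fell with the block and were 11.7% to 24.5% lower; 0 were called without it. Nop2 methylates the RNA of the large subunit. Its level was 62.4, 70.1, 93.0 and 106.9 FPKM in IL-10- replicates 1 to 4 and 47.0, 52.8, 69.3 and 81.9 FPKM in IL-10+ replicates 1 to 4. The groups overlap, while within a number the IL-10+ library was at 0.745 to 0.766 of its counterpart. Nop2 was 24.5% lower (log2 -0.40, SE 0.22, limma adjusted p = 0.243), and its blocked adjusted p of 0.000137 (SE 0.024) was the lowest of the 40. Ppan, an early 60S factor, was at 29.3, 29.3, 34.4 and 39.1 FPKM in the IL-10- libraries of numbers 1 to 4 and at 23.3, 21.5, 25.2 and 29.9 FPKM in their IL-10+ counterparts. Only IL-10+ replicate 4 reached the range of the IL-10- libraries, and Ppan was 24.4% lower (limma adjusted p = 0.0622 without and 0.000338 with the block). Noc2l, the most abundant of the 12, was at 82.2, 92.8, 116.4 and 126.3 FPKM in the IL-10- libraries of numbers 1 to 4 and at 68.0, 73.1, 91.1 and 101.6 FPKM in their IL-10+ counterparts. Its groups overlap, and it was 20.1% lower (limma adjusted p = 0.238 without and 0.000362 with the block). The 3 proteins of the PeBoW complex, which joins the maturing 60S particle, were lower by 15.5% (Pes1), 11.7% (Bop1) and 14.4% (Wdr12). Their blocked limma adjusted p values were 0.000669, 0.00338 and 0.0101. Wdr12 had the lowest level of the 40 genes, at 4.34 to 7.84 FPKM over the libraries.

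The 5 multifunctional nucleolar proteins were 13.2% to 18.6% lower, and all 5 fell with the block. Npm1, nucleophosmin, a chaperone of the nucleolus and the most abundant of the 40, was at 702.5, 846.0, 840.5 and 890.7 FPKM in IL-10- replicates 1 to 4 and at 619.3, 682.5, 736.3 and 774.8 FPKM in IL-10+ replicates 1 to 4. Replicate 1 was the lowest of each group, and the groups overlap. The means of 703.2 ± 67.6 and 819.9 ± 81.5 FPKM (SD, n = 4) differed by 14.2% (limma adjusted p = 0.160 without and 0.00372 with the block). Mybbp1a, a nucleolar protein of ribosomal RNA synthesis and processing, was at 117.9, 138.5, 189.3 and 197.9 FPKM in the IL-10- libraries of numbers 1 to 4 and at 93.7, 112.4, 153.0 and 164.8 FPKM in their IL-10+ counterparts. It was 18.6% lower (limma adjusted p = 0.399 without and 0.000382 with the block). Ddx21, a nucleolar RNA helicase, was at 119.6, 140.0, 155.2 and 160.2 FPKM in the IL-10- libraries of numbers 1 to 4 and at 98.2, 109.0, 130.8 and 130.3 FPKM in their IL-10+ counterparts, 18.6% lower (limma adjusted p = 0.143 without and 0.000625 with the block). Both genes overlapped between the groups. Nucleolin (Ncl) was 16.5% and nucleostemin (Gnl3) 13.2% lower.

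The polyamine enzymes were the members that went the other way. Polyamines are small cations needed for growth; Odc1, ornithine decarboxylase, makes putrescine, and Srm, spermidine synthase, converts it to spermidine. Odc1 was at 76.1, 93.0, 130.4 and 134.0 FPKM in IL-10- replicates 1 to 4 and at 93.6, 109.6, 145.6 and 143.6 FPKM in IL-10+ replicates 1 to 4. Srm was at 89.3, 106.0, 176.4 and 196.5 FPKM in the IL-10- libraries of numbers 1 to 4 and at 100.1, 116.2, 192.1 and 207.6 FPKM in their IL-10+ counterparts. In both genes every IL-10+ library was above its IL-10- counterpart, by 1.07 to 1.23 times for Odc1 and 1.06 to 1.12 times for Srm, while the groups overlap and numbers 3 and 4 were far above 1 and 2. Odc1 was 13.6% higher (log2 0.20, SE 0.21, limma adjusted p = 0.571) and rose with the block (adjusted p = 0.00852). Srm was 8.41% higher (log2 0.12, SE 0.32, limma adjusted p = 0.827) and rose with the block (adjusted p = 0.0108). With the block and median-of-ratios scaling the changes were 0.24 and 0.17. Without the block the sign of Srm turned negative when IL-10- replicate 1, IL-10+ replicate 3 or IL-10+ replicate 4 was left out (-0.07, -0.0049 and -0.04), and that of Odc1 stayed positive in all 27 fits run.

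**Figure D2:**
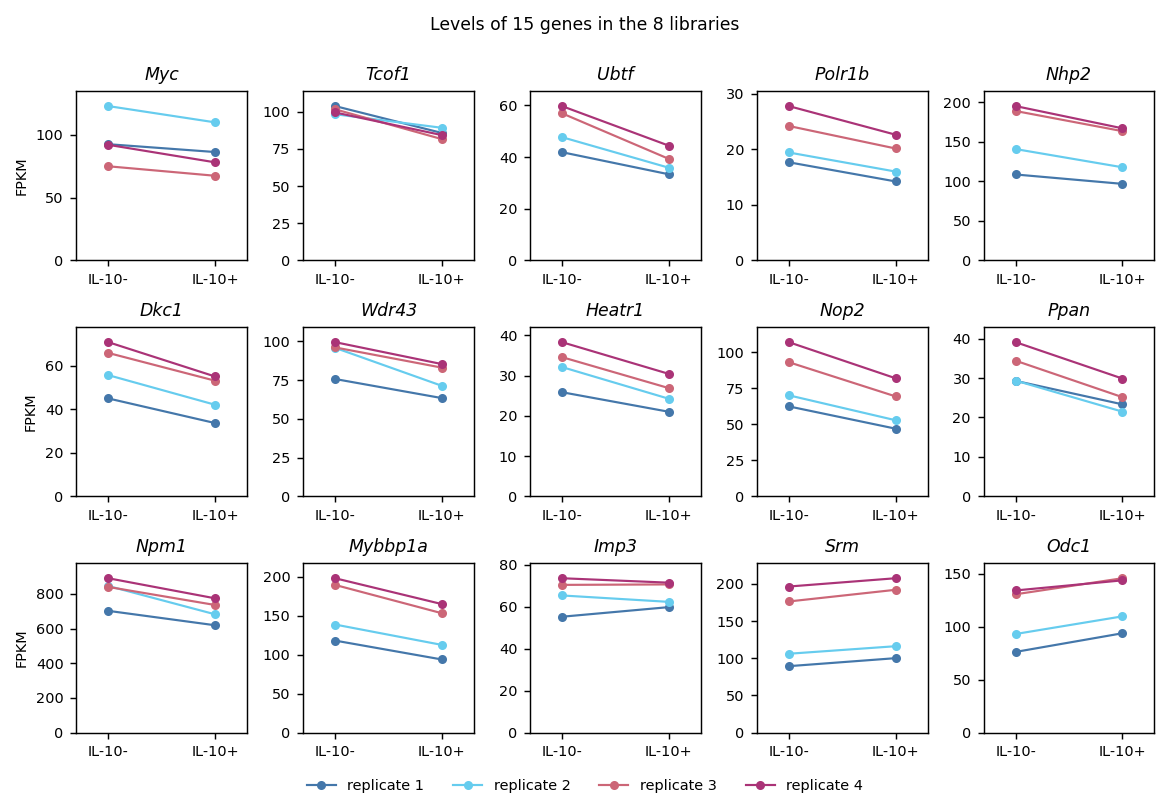
Levels in FPKM (y axis, from 0) of 15 of the genes in the IL-10- and IL-10+ libraries (x axis), with a line joining libraries of the same replicate number. The lines fall from IL-10- to IL-10+ in Myc and the ribosome genes other than Imp3 and climb in Srm and Odc1, while in most panels replicates 3 and 4 lie above 1 and 2.

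Of 14 other listed polyamine genes 12 passed the filter, and without the block 0 rose and 1 fell in limma. Sms, spermine synthase, which acts on the product of Srm, was at 18.2, 21.03, 22.6 and 24.2 FPKM in the IL-10- libraries of numbers 1 to 4 and at 13.5, 15.1, 15.7 and 15.9 FPKM in their IL-10+ counterparts. The groups of Sms did not overlap, and it fell by 0.48 on the log2 scale (SE 0.095, limma adjusted p = 0.00801). Its call held when each of the 8 libraries was left out. With the block 2 rose and 4 fell, and with the block and median-of-ratios scaling 4 rose and 2 fell. The shares with the block, 16.7% and 33.3%, are near the 20.4% and 33.3% of all tested genes. Amd1, S-adenosylmethionine decarboxylase, which supplies the aminopropyl groups for both synthases, was at 28.0 ± 5.93 against 34.3 ± 9.73 FPKM (SD, n = 4; blocked limma adjusted p = 0.00736). Slc3a2, the heavy chain of amino acid transporters, was at 147.1 ± 44.2 FPKM in IL-10+ against 103.1 ± 30.9 FPKM in IL-10- cells (limma adjusted p = 0.227 without and 0.000112 with the block). Amd1 and Slc3a2 were named after their values were seen.

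The other genes of ribosome biogenesis were mostly lower in IL-10+ cells as well. Of 133 listed genes that are not among the 40, 131 were found and tested. Without the block 0 rose and 6 fell in limma (0% and 4.58%, against 10.6% and 9.18% of all tested genes). With the block 3 rose and 92 fell, and with median-of-ratios scaling as well 3 rose and 76 fell. The 92 are 70.2% of the list and the 76 are 58.0%, against 33.3% and 26.2% of all tested genes. Their median log2 change was -0.18, against -0.24 for the 40 genes and -0.06 for all genes. The 3 that rose with the block were Ddx54, an RNA helicase, at 38.0 ± 1.42 against 34.6 ± 1.41 FPKM, Utp3, a processome subunit, at 59.2 ± 9.29 against 52.95 ± 9.78 FPKM, and Maf1, a repressor of RNA polymerase III, at 42.0 ± 9.68 against 36.8 ± 7.46 FPKM (SD, n = 4).

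By role, the other polymerase I genes gave 9 lower and 0 higher of 12 with the block. Polr1c, a subunit shared by polymerases I and III, was at 37.5 ± 4.54 FPKM in IL-10+ against 49.4 ± 6.18 FPKM in IL-10- cells (SD, n = 4; log2 -0.39, limma adjusted p = 0.0467 without the block), and Twistnb, a polymerase I subunit, was at 10.8 ± 0.0745 against 13.1 ± 1.12 FPKM (log2 -0.25, 0.0331). Small nucleolar ribonucleoprotein factors gave 7 lower and 0 higher of 10; among them Pih1d1, a cofactor of their assembly, was at 13.5 ± 0.369 against 15.7 ± 0.644 FPKM (limma adjusted p = 0.0329 without the block). Small subunit factors gave 33 lower and 1 higher of 45, with the helicase Ddx10 at 21.8 ± 1.25 against 26.7 ± 1.94 FPKM (limma adjusted p = 0.0278 without the block). Large subunit factors gave 35 lower and 1 higher of 45, and 0 of them were called without the block, where 6 were lower at an unadjusted p under 0.05; the most abundant were Nop53 (98.4 ± 14.9 against 107.2 ± 19.3 FPKM) and Rsl1d1 (83.7 ± 20.2 against 97.6 ± 24.7 FPKM). Genes of RNA polymerase III and its factors, which make 5S ribosomal RNA and transfer RNAs, gave 8 lower and 1 higher of 19. These 42.1% lower compare with 33.3% of all tested genes. With median-of-ratios scaling as well, the shares were 31.6% and 26.2%. With the block alone, 75% of the polymerase I, 70% of the small nucleolar ribonucleoprotein, 73.3% of the small subunit and 77.8% of the large subunit genes fell. The difference between the roles was not tested. Among the polymerase III genes, Polr3e was at 10.7 ± 1.24 against 13.7 ± 0.788 FPKM and Gtf3c5 at 10.3 ± 0.475 against 12.4 ± 0.366 FPKM (limma adjusted p = 0.0236 and 0.0138 without the block). Gtf3c5 kept its unblocked call when each library was left out; the calls of the other 5 ended in 4 to 7 of those 8 fits, each library ending at least 1 of them, and all 6 were called in the 8 fits with the block. Under 3 other scalings without the block, the calls of Polr1c, Twistnb and Pih1d1 ended in 3 and that of Ddx10 in 2.

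The genes of the ribosomal proteins had medians a little below the -0.06 of all tested genes. Of 77 tested cytosolic ribosomal protein genes 0 were called in limma without the block, where 4 were lower and 1 higher at an unadjusted p under 0.05. With the block 1 rose and 17 fell, with median-of-ratios scaling as well 2 rose and 5 fell, and their median log2 change was -0.09. The shares that fell, 22.1% and 6.49%, are below the 33.3% and 26.2% of all tested genes. Of the 77 changes 73 were negative, against 6873 of 11329 for all tested genes. In all 4 numbers 40 were lower and 2 higher, against 40.4% and 24.3% of all tested genes. The groups did not overlap in 15 genes with IL-10+ lower and in 1 with it higher, against 13% and 12.2%. Of 76 mitochondrial ribosomal protein genes 1 rose and 1 fell without the block and 7 rose and 30 fell with it (9.21% and 39.5%), at a median of -0.09. The difference between these lists and the 40 genes was not tested.

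**Figure D3:**
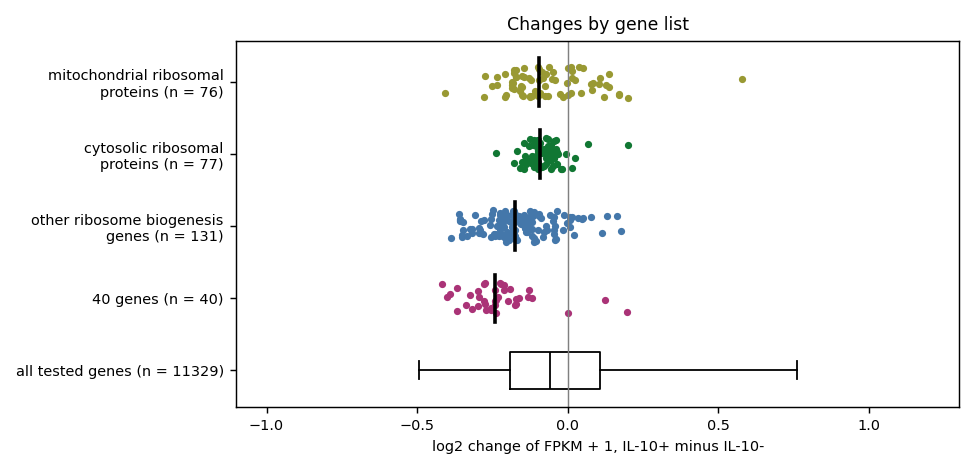
Log2 change of FPKM + 1 (IL-10+ minus IL-10-, x axis) by gene list (y axis). The box of all tested genes spans the quartiles with whiskers at the 5th and 95th percentiles, points are single genes, and black bars are list medians: -0.24 for the 40 genes, -0.18 for other ribosome biogenesis genes, and -0.09 for cytosolic and for mitochondrial ribosomal proteins.

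Known MYC targets outside the nucleolus were mostly lower with the block. In a list of 40 such genes, 0 rose and 2 fell in limma without the block, and 6 rose and 27 fell with it (15% and 67.5%, against 20.4% and 33.3% of all tested genes), at a median log2 change of -0.18. Impdh2, the rate-limiting enzyme of guanine nucleotide synthesis, was at 113.6, 126.0, 122.6 and 123.3 FPKM in the IL-10- libraries of numbers 1 to 4 and at 87.1, 96.1, 94.8 and 101.8 FPKM in their IL-10+ counterparts. The groups did not overlap, and Impdh2 fell by 0.35 on the log2 scale (SE 0.069, limma adjusted p = 0.00758), also when each library was left out. Paics, a purine synthesis enzyme, was at 90.2 ± 9.19 against 118.9 ± 12.9 FPKM (SD, n = 4; limma adjusted p = 0.0320); the call was lost in 6 of the 8 fits that leave out a library (up to 0.0839; all but those without IL-10- replicate 1 or IL-10+ replicate 4) and under 2 of 3 other scalings. The 6 that rose with the block were Ccnd2, cyclin D2, at 96.6 ± 19.5 against 70.1 ± 8.23 FPKM, Pkm, pyruvate kinase, at 354.7 ± 29.9 against 313.7 ± 28.1 FPKM, and Shmt2, Cdkn1a, Eif4ebp1 and Hk2.

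Among 11 genes tied to the p53 response to nucleolar stress, 2 rose and 1 fell without the block and 6 rose and 3 fell with it. The shares that fell, 9.09% and 27.3%, are near or below the 9.18% and 33.3% of all tested genes, and those that rose, 18.2% and 54.5%, compare with 10.6% and 20.4%. These genes were named after their values were seen. Cdkn2a, which encodes the cell cycle inhibitors p16INK4a and ARF, was at 5.49, 7.24, 1.94 and 4.21 FPKM in the IL-10- libraries of numbers 1 to 4 and at 13.2, 13.6, 7.77 and 11.8 FPKM in their IL-10+ counterparts. The groups did not overlap, and it rose by 1.21 on the log2 scale (SE 0.31, limma adjusted p = 0.0250). Mdm2, the ubiquitin ligase of p53, was at 26.8 ± 1.75 against 22.3 ± 0.184 FPKM (SD, n = 4; limma adjusted p = 0.0215), and Trp53, which encodes p53, was at 59.0 ± 4.32 against 70.1 ± 2.79 FPKM (0.0372). The 3 calls ended in 4, 5 and 6 of the 8 fits that leave out a library (adjusted p up to 0.0716, 0.0569 and 0.107), each library other than IL-10- replicate 1 ending at least 1 of them, and that of Trp53 also under 3 of 3 other scalings. Of 22 cell cycle genes 1 rose and 1 fell without the block, and 11 rose and 8 fell with it. These are 4.55% each way and then 50% and 36.4%, against 10.6% and 9.18% and then 20.4% and 33.3% of all tested genes.

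The replicate numbers separated most of the 40 genes more widely than the sort did. The mean of numbers 3 and 4 exceeded that of 1 and 2 by a median log2 of 0.45 over the 40 genes, against -0.02 over all tested genes, and 38 of the 40 were higher in 3 and 4, against 46.5% of all. In 33 of the 40 genes this difference was larger than that between IL-10+ and IL-10- cells. The share of all tested genes for which this holds was not computed. Srm had the widest, at 0.91, followed by Nolc1 (0.77) and Ftsj3 (0.70). Myc went the opposite way, at -0.39, and Tcof1 was nearly level, at -0.04. A difference over 0.5 was present in 15 of the 40 genes and in 3.02% of all tested genes. The other ribosome biogenesis genes had a median of 0.28 and the cytosolic ribosomal proteins one of -0.04. What the numbers mark is not given, so no group of the study corresponds to this difference, and no test was made of it.

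**Figure D4:**
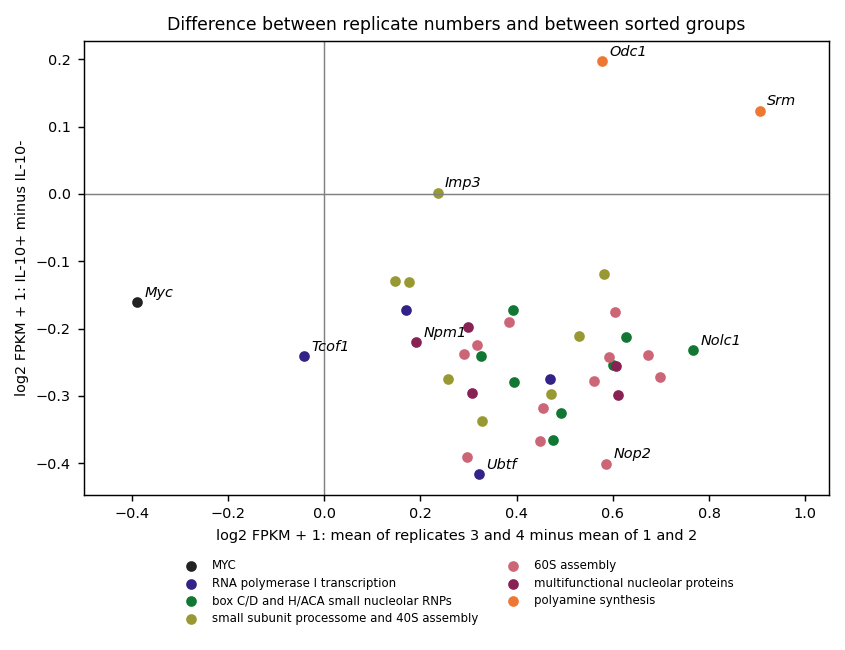
For each of the 40 genes, the log2 difference of FPKM + 1 between replicates 3 and 4 and replicates 1 and 2 (x axis) against that between IL-10+ and IL-10- (y axis), coloured by role. Most genes lie at the lower right, higher in numbers 3 and 4 and lower in IL-10+; Myc (-0.39 and -0.16) lies at the far left, and Srm and Odc1 lie above 0 on both axes.

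In the annotation, 19 of the 40 genes have exons that overlap those of another gene, 16 of them a gene on the opposite strand. No source used here gives the strand setting of the counting, so reads of such pairs cannot be told apart and their levels are uncertain. Among the genes described above, those with an opposite-strand overlap include Dkc1, Nhp2, Heatr1, Wdr43, Bysl, Imp4, Noc2l, Pes1, Bop1, Wdr12, Polr1a, Mybbp1a and Gnl3. Myc, Npm1, Ubtf and Nop2 overlap no other gene's exons.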

How the data were processed

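The authors deposited FPKM values for the 8 libraries, per the file headers; HISAT2 2.1.0, HTSeq 0.6.0 and build mm10 are named in the submitters' processing notes, and no source used here gives the annotation release, the strand setting or how shared reads were handled. GENCODE M21 named 26550 of the 26589 identifiers and missed 39. Low values gave whole reads (within 0.05) for 93.2% to 93.5% of values above 0, with 1 read in 1 kb worth 0.0334 to 0.0365 FPKM.

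FPKM are not counts, so log2(FPKM + 1) was fitted with limma 3.58.1 (R 4.3.3, variance trend) for 11329 genes that reached 1 FPKM in 4 or more libraries, with Benjamini-Hochberg adjustment over all of them; the pseudocount of 1 understates changes of low genes. Percent differences are ratios of mean FPKM. Same-numbered libraries deviated from their group means together, with correlations across genes of 0.71, 0.58, 0.62 and 0.70. The numbers were therefore taken to pair the samples, which the labels do not say. Unlike numbers correlated too, at 0.28 to 0.43 between 1 and 2 or between 3 and 4. Across those sets the correlations were -0.61 to -0.38. Part of what same-numbered libraries share is thus a difference between the sets. The fit was tested on simulated data. Alternatives were pseudocounts of 0.1 and 0.5, a minimum of 5 FPKM, other scalings, the block, replicate sets and leaving out libraries.

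The 40 genes and all lists were chosen with earlier results of these data known. Named by rule were Myc and, in each role, the 2 called members with the largest change and the most abundant one. Members opposite to the majority were named too. In other lists the rule named up to 4 called genes, or the 2 most abundant where fewer than 2 were called. Further genes were named outside this rule, with their values known. They include the MYC network genes beyond 4, single called genes such as Sms, Amd1 and Slc3a2, and genes that rose with the block.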

Additional observations from a re-analysis of the deposited data

Results flagged for a closer look

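Wdr43 in the IL-10- group had a low library. Replicate 1 stood at 75.7 FPKM against 95.8 to 99.4 FPKM in the other IL-10- libraries, a gap of 0.846 of the group's range, above Dixon's 95% critical value for 4 values. In all, 38 groups of 4 libraries were examined in this way, and chance passes about 1 in 20. In the IL-10+ group the library of the same number was also the lowest, at 63.4 FPKM.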

How the results depend on the processing

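The direction of the 40 genes was stable: 36 were lower and 1 (Odc1) higher in IL-10+ cells in all 27 fits, and the exceptions were Imp3, Srm and Bysl. The calls were not. Without the block, 2236 genes, 1 member and 6 other ribosome biogenesis genes passed. With the replicate block 6083 genes were called, with 37 members lower and 2 higher, and 92 of the other genes lower and 3 higher. The block with median-of-ratios scaling gave 5605, 35, 2, 76 and 3 (median of members -0.197), the block with totals that leave out mitochondrial and immunoglobulin genes 5663, 36, 2, 80 and 3, and the block with trimmed-mean scaling, chosen after seeing the data, 5539, 35, 2, 77 and 4 (median -0.201). Without the block, these scalings left 2, 3 and 2 of the other genes called lower, and the members' median was -0.197 and -0.201 under median-of-ratios and trimmed-mean scaling. Within replicates 1 and 2, also without the block, 1094 genes, 0 members and 0 other genes were called (the last 2 counts lower in IL-10+). Within 3 and 4, again without it, 17 members and 18 other genes were lower.

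Leaving out 1 library in turn gave 1550 to 2045 genes, 0 to 3 members lower, 1 to 8 other genes lower, a members' median of -0.368 to -0.151 and a Myc difference of -18.4 to -1.07 FPKM. The cause of these shifts was not tested. Imp3, near 0 throughout, turned negative within replicates 3 and 4 (-0.0185), in 4 of the fits without 1 library (range of all 8 fits -0.0807 to 0.0552) and with the block without replicate 1 (-0.0349). Srm turned negative in 3 fits without 1 library (range of all 8 fits -0.072 to 0.3064). With the block, leaving out a replicate number, also chosen after seeing the data, gave 5082, 4927, 4843 and 4844 genes (numbers 1 to 4), 35 to 36 members lower, 2 higher, 89, 75, 78 and 74 other genes lower and 2 to 4 higher. The members' calls lost in these fits were those of Imp4, Nop58 or Bysl. Counting error is over 0.5 of the blocked standard error in 18 of the 40 genes, and at most 0.235 of the unblocked one. The effect of depth on the calls was not tested.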
